A study of Homo sapiens with 6 samples.

Results

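The genes described here are 10 regulators of the G1 phase of the cell cycle: the D-type cyclins CCND2 and CCND3, their kinases CDK4 and CDK6, the INK4 inhibitors CDKN2A, CDKN2B, CDKN2C and CDKN2D, and the CIP/KIP inhibitors CDKN1B and CDKN1C. They were chosen by gene symbol, and all 10 have a row among the 63677 genes of the count table. RNA came from RPMI-8402, an established T-cell acute lymphoblastic leukaemia (T-ALL) line that carried Cas9 stably in both groups. The control group received the solvent DMSO and the other group received doxycycline (DOX), which induced guide RNAs aimed at MYC and MYCN, each for 72 hours. The genotype label reads control for DMSO and MYCN_knockout for DOX, whereas the protocol mentions MYC alone and the title has both genes. Each group held 3 libraries, which take their names from the headers of the count table: DMSO 11, DMSO 23 and DMSO 35, and DOX 12, DOX 24 and DOX 36. Nothing states that they came from separate cultures, so the error behind each p-value is that among libraries and may be technical only. Doxycycline without guides was not analysed here, so the drug and the guides cannot be told apart.

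D-type cyclins bind CDK4 or CDK6, and the pair phosphorylates the retinoblastoma protein RB1 and its relatives, which releases E2F transcription factors and lets a cell enter S phase. INK4 proteins bind CDK4 and CDK6 directly and block their pairing with cyclin. CIP/KIP proteins, such as p27 (CDKN1B), inhibit the CDK2 complexes that act next. In T-ALL the INK4 genes CDKN2A and CDKN2B, which lie side by side on chromosome 9, are often deleted, and cyclin D3 and CDK6 are the cyclin and kinase that developing T cells rely on. MYC and MYCN act with their partner MAX at the DNA word CACGTG, and CDK4 and CDKN1B are among the genes long described as raised or held down by MYC.

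Because the guides were aimed at MYC proteins, the bases before each gene start were searched for CACGTG, which reads the same on both strands. The search covered 250 bases before each start in RefSeq's promoter table (GRCh38.p14), which held 14 starts of 8 of the 10 genes. CDK4 held the word 3 times, and CDKN2C held it once before 2 of its 3 starts. The other 6 genes with an entry did not hold these letters in this window. Over all 35116 starts in the table, 6.345% held the word at least once and 0.0797% at least 3 times. A match is a description of the sequence and not evidence of binding. The windows are shown for CDK4, where the word begins at positions -216, -196 and -101 from the start, and for the CDKN2C start where it begins at -69, with CACGTG in capitals, 5′ to 3′ on the strand of the gene. The CDK4 window is chr12:57752311-57752560 on the minus strand and the CDKN2C window is chr1:50969995-50970244 on the plus strand.
CDK4: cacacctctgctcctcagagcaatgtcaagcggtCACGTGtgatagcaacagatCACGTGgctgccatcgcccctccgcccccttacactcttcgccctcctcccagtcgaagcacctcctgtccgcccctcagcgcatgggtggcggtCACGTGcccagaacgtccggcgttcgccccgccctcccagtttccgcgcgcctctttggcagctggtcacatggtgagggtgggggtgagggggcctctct
CDKN2C: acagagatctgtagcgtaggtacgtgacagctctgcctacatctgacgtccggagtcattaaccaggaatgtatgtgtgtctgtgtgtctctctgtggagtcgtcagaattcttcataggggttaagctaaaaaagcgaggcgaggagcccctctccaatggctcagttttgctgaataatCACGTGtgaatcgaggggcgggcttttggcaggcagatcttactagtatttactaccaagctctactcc

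Libraries held 28602145 to 29204148 counts, and levels below are CPM, the count as a share of the library's TMM-scaled total. The test was edgeR's quasi-likelihood F-test, with p-values adjusted by Benjamini-Hochberg over the 15949 genes that passed the low-count filter, and 5 of them (0.0313%; 0.0125% higher and 0.0188% lower in DOX) had an adjusted p under 0.05. DMSO 11 stood apart from its group. Its root mean square log2 distance, over the 9311 genes whose mean reached 10 CPM, was 0.18 to 0.21 from the DOX libraries but 0.43 from DMSO 23 and 0.41 from DMSO 35. The DOX libraries were each 0.11 from one another, and DMSO 23 and DMSO 35 were 0.17 apart, so DMSO 11 also stood off from the DOX libraries. The tested G1 regulators, and other genes where a call changed, are therefore also given without DMSO 11. In that fit, with 2 DMSO libraries, 8109 of 16412 genes (49.4%) passed. DMSO 11 was picked for its values in these same data, so p-values and intervals of that fit are descriptions and not a separate test. The targeted gene MYCN stood at 76.8, 110 and 86.9 CPM in DMSO 11, 23 and 35 and at 46.2, 50.0 and 53.7 CPM in DOX 12, 24 and 36. Its groups did not overlap, as in 15.6% of all genes tested with DOX lower. Its log2 fold change was -0.87 ± 0.13 (SE), with an adjusted p of 0.0726 by edgeR and 8.05e-06 by DESeq2. By edgeR MYCN also passed without DMSO 11 (-0.98, adjusted p = 2.26e-07) and without the low-count filter (-0.88, adjusted p = 2.78e-09). The fit without that filter called 5.56% of all its genes, 3.62% as lower. MYCN did not pass by limma's voom (adjusted p = 0.0775) or by edgeR with total-count scaling (0.0827). Leaving out any library other than DMSO 11 gave edgeR adjusted p-values of 0.212 to 0.344. MYC averaged 245 ± 39.7 CPM under DMSO against 200 ± 6.57 CPM under DOX (SD, n = 3; edgeR adjusted p = 0.176, and 0.0566 without DMSO 11). Of 13 T lineage markers, 12 had a mean of at least 1 CPM, and CD1E was at 0 to 0.102 CPM. The 6 B cell markers summed to 5.39 to 7.22 CPM under DMSO and 6.17 to 7.97 CPM under DOX, with MS4A1 at 0 counts in every library, and 6 myeloid markers summed to 0.947 to 1.69 CPM under DMSO and 1.63 to 1.98 CPM under DOX.

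The 10 genes split into expressed and silent ones in both groups alike. CCND3, CDK4, CDK6, CDKN1B, CDKN2C and CDKN2D were each above 20 CPM in every library. CCND2 was at the edge of detection, and CDKN2A, CDKN2B and CDKN1C were at 0 to 2 counts per library and failed the filter, so 7 of the 10 genes were tested. Of these 7, edgeR called 0. DESeq2 called 0, where it called 9.96% of all its genes, and limma's voom called 0, where it called 0.0313% of all genes (0.0125% higher and 0.0188% lower). At an unadjusted edgeR p under 0.05 there were 2, CDKN2C (higher in DOX) and CDKN1B (lower in DOX). Of all genes tested, 4150 (26.02%) reached that level, 11.17% as higher and 14.85% as lower. Without DMSO 11, edgeR called 5 of the 7: CCND3 and CDKN2C as higher in DOX, and CDKN1B, CDKN2D and CDK6 as lower. In that fit 49.4% of all genes passed (23.7% as higher and 25.7% as lower), and the 5 calls among 7 are to be read against that share.

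Cyclin D3 (CCND3, ENSG00000112576, chromosome 6) was by far the main D-type cyclin message. It stood at 601, 325 and 357 CPM in DMSO 11, 23 and 35 and at 576, 599 and 562 CPM in DOX 12, 24 and 36. DMSO 11 was the highest of all 6 libraries and DMSO 23 and DMSO 35 the lowest, so the groups overlapped. The log2 fold change was 0.44 ± 0.21 (SE; 95% interval -0.05 to 0.92), with an edgeR adjusted p of 0.227 and a DESeq2 adjusted p of 0.179. Without DMSO 11 the log2 fold change was 0.76 (95% interval 0.61 to 0.91; edgeR adjusted p = 6.78e-08). The spread within DOX was small, at a SD of 18.7 CPM, against 151 CPM within DMSO.

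Cyclin D2 (CCND2, ENSG00000118971, chromosome 12), the other D-type cyclin on the list, had 151 counts over all 6 libraries together. It held 7, 42 and 27 counts in DMSO 11, 23 and 35 and 25, 18 and 32 counts in DOX 12, 24 and 36, which is 0.250 to 1.42 CPM under DMSO and 0.630 to 1.11 CPM under DOX. The lowest and the highest library were both DMSO. Its log2 fold change of 0.00483 ± 0.51 had a 95% interval from -1.15 to 1.16, so changes within those bounds were not excluded. Without DMSO 11, the library with 7 counts, it was -0.42 ± 0.29 (edgeR adjusted p = 0.233). The width of the interval thus also rested on the spread of the DMSO libraries, and the sign differed between settings. The third family member CCND1, named after its values were seen, was at 1 to 15 counts per library. Per kb of annotated exons, CCND3 made up 99.5% to 99.9% of the D-type cyclin signal in each of the 6 libraries.

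CDK6 (ENSG00000105810, chromosome 7) had the most reads of the 10 genes, not corrected for length, and ranked 38 by mean CPM among the 15949 genes tested. It stood at 1062, 1339 and 1568 CPM in DMSO 11, 23 and 35 and at 1301, 1152 and 1223 CPM in DOX 12, 24 and 36. All DOX libraries lay inside the range of the DMSO libraries. The log2 fold change was -0.11 ± 0.15 (95% interval -0.45 to 0.22; edgeR adjusted p = 0.645). It was -0.25 without DMSO 11 (edgeR adjusted p = 0.0184) and 0.03 without DMSO 35 (adjusted p = 0.936), so both its call and its direction rested on which DMSO library was kept.

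CDK4 (ENSG00000135446, chromosome 12), whose promoter window holds CACGTG 3 times, stood at 264, 219 and 210 CPM in DMSO 11, 23 and 35. The DOX libraries 12, 24 and 36 held 198, 219 and 209 CPM. The groups overlapped, and DMSO 11 was the highest library. The log2 fold change was -0.15 ± 0.11, with an edgeR adjusted p of 0.402, and its 95% interval of -0.39 to 0.10 spans folds from 0.763 to 1.07. Without DMSO 11 it was -0.04 (95% interval -0.18 to 0.10; edgeR adjusted p = 0.643). CDK4 shares 1369 of its 3168 annotated exonic bases (43.2%) with TSPAN31 on the opposite strand in GENCODE 29. How strand was handled in counting is not given in the sources used here, and reads of the pair may not be told apart. TSPAN31 itself was at 14.8 to 17.6 CPM, far below CDK4, which does not show how reads of the shared bases were counted. The CDK4 levels per kb and the ratios with CDK4 below carry this limit.

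**Figure D1:**
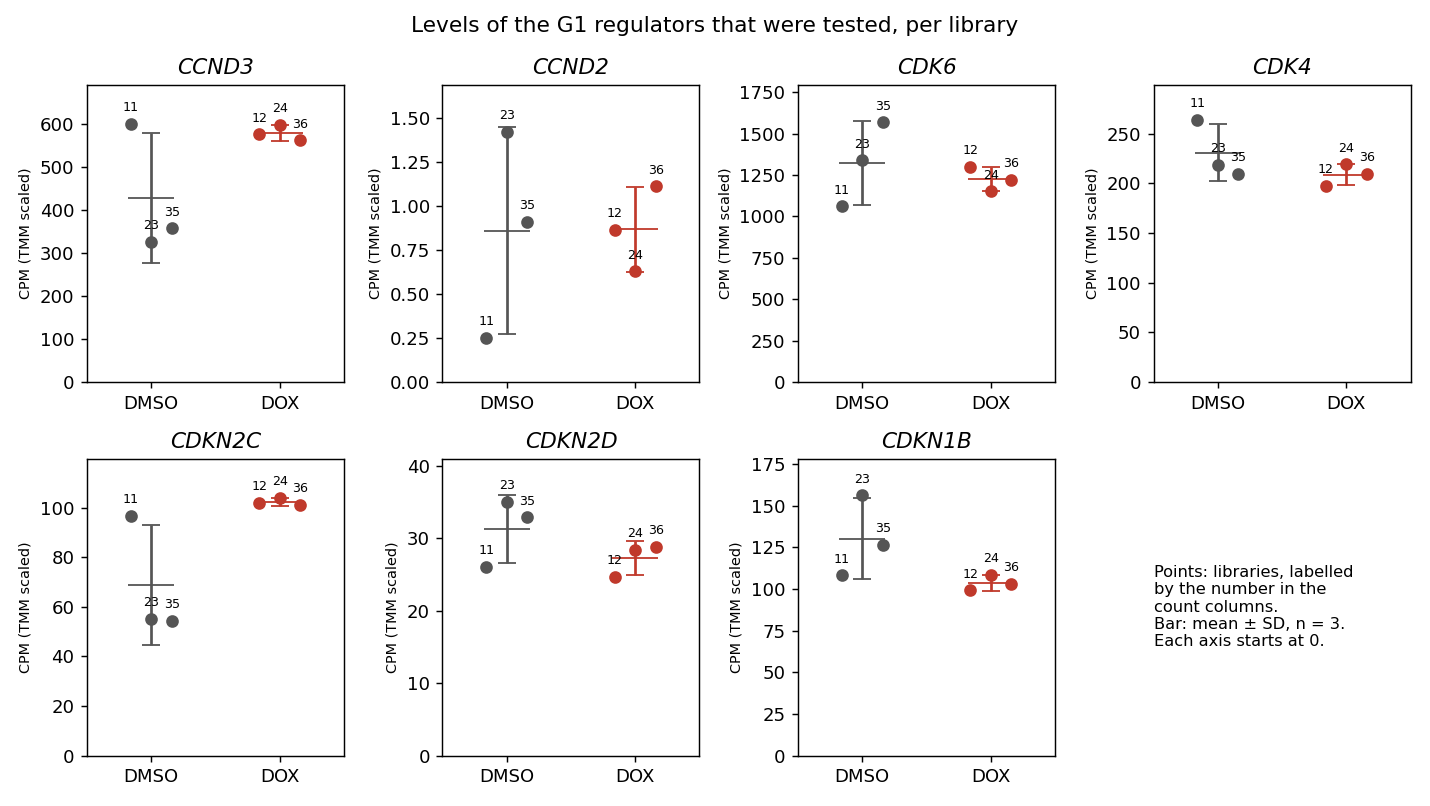
CPM (vertical axis of each panel, from 0) of the 7 tested G1 regulators in the 3 DMSO (grey) and 3 DOX (red) libraries; points are libraries labelled by their number, bars are the mean ± SD. For CCND3 and CDKN2C, DMSO 11 (601 and 96.7 CPM) sits near the DOX libraries and away from DMSO 23 and DMSO 35.

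Among the INK4 inhibitors, CDKN2A and CDKN2B carried no measurable message in this line, in either group. CDKN2A (ENSG00000147889, chromosome 9), which encodes p16 and the p53 regulator p14ARF, had 0 counts in all 6 libraries. A count of 0 allows up to 3 counts, or 0.101 to 0.107 CPM per library, for counting error only. CDKN2B (ENSG00000147883), its neighbour encoding p15, had 0 counts in 5 libraries and 2 counts in DOX 36. Of their neighbours on the same chromosome, the antisense RNA CDKN2B-AS1 and the genes ELAVL2 and TUSC1 had 0 counts in every library. The enzyme MTAP, named after its values were seen, had 10 to 15 counts per library (0.350 to 0.507 CPM), and DMRTA1 had 31 to 50. KLHL9 was expressed at 83.0 to 101 CPM. A count table does not report the DNA, so whether the locus is present was not tested.

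CDKN2C (ENSG00000123080, chromosome 1), which encodes p18, was the one tested gene of the list whose groups did not overlap. It stood at 96.7, 55.3 and 54.3 CPM in DMSO 11, 23 and 35 and at 102, 104 and 101 CPM in DOX 12, 24 and 36. All 3 DOX libraries were higher than all 3 DMSO libraries, but the gap was only that from DMSO 11 at 96.7 CPM to DOX 36 at 101 CPM. Groups did not overlap in 1 of these 7 genes and in 30.2% of all genes tested (14.6% with DOX higher and 15.6% with DOX lower). The log2 fold change was 0.57 ± 0.21 (95% interval 0.10 to 1.05), with an edgeR adjusted p of 0.14, a DESeq2 adjusted p of 0.0673 and a voom adjusted p of 0.125. The two-sided exact permutation test gave p = 0.1, the smallest value that 3 libraries against 3 allow. Without DMSO 11 the log2 fold change was 0.90 (95% interval 0.76 to 1.04, edgeR adjusted p = 1.73e-09), a 1.87-fold higher level in DOX. Leaving out the DMSO library nearest to DOX widened the gap and narrowed the interval, so that p-value is a description only. The mean DOX level exceeded DMSO 11 by 0.08 and the mean of DMSO 23 and DMSO 35 by 0.90 on the log2 CPM scale.

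CDKN2D (ENSG00000129355, chromosome 19), which encodes p19, differed less and in the other direction. It stood at 26.04, 35.03 and 32.9 CPM in DMSO 11, 23 and 35 and at 24.6, 28.4 and 28.8 CPM in DOX 12, 24 and 36. DMSO 11 lay within the DOX range and the other DMSO libraries above it. The log2 fold change was -0.20 ± 0.13 (95% interval -0.49 to 0.10; edgeR adjusted p = 0.346), and -0.32 without DMSO 11 (edgeR adjusted p = 0.00381). With the opposite signs of CDKN2C and CDKN2D, the share of CDKN2C in the INK4 signal per kb of exons was 62.7% in DMSO 11, 41.7% in DMSO 23, 42.8% in DMSO 35, and 65.2%, 62.3% and 61.3% in DOX 12, 24 and 36. DMSO 11 thus had a share inside the range of the DOX libraries.

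CDKN1B (ENSG00000111276, chromosome 12), which encodes p27, was the one CIP/KIP inhibitor with a strong message. It stood at 108, 156 and 126 CPM in DMSO 11, 23 and 35 and at 99.2, 108 and 103 CPM in DOX 12, 24 and 36. DMSO 11 lay just below the highest DOX library, and the other DMSO libraries lay above all DOX libraries. The log2 fold change was -0.33 ± 0.13 (95% interval -0.63 to -0.03), and the adjusted p was 0.162 by edgeR, 0.12 by DESeq2 and 0.179 by voom. It passed edgeR's test without DMSO 11 (-0.45, adjusted p = 0.000104) and without a filter on low counts (-0.34, adjusted p = 0.0457), a fit that called 5.56% of all its genes, 1.94% as higher and 3.62% as lower. Without DMSO 23 the log2 fold change was -0.18 (adjusted p = 0.409). CDKN1C (ENSG00000129757, chromosome 11), the imprinted inhibitor p57, had 0 counts in 5 libraries and 1 count in DOX 12. The related inhibitor CDKN1A (p21), a p53 target named after its values were seen, had 5 to 27 counts per DMSO library and 13 to 39 per DOX library (edgeR adjusted p = 0.373).

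**Figure D2:**
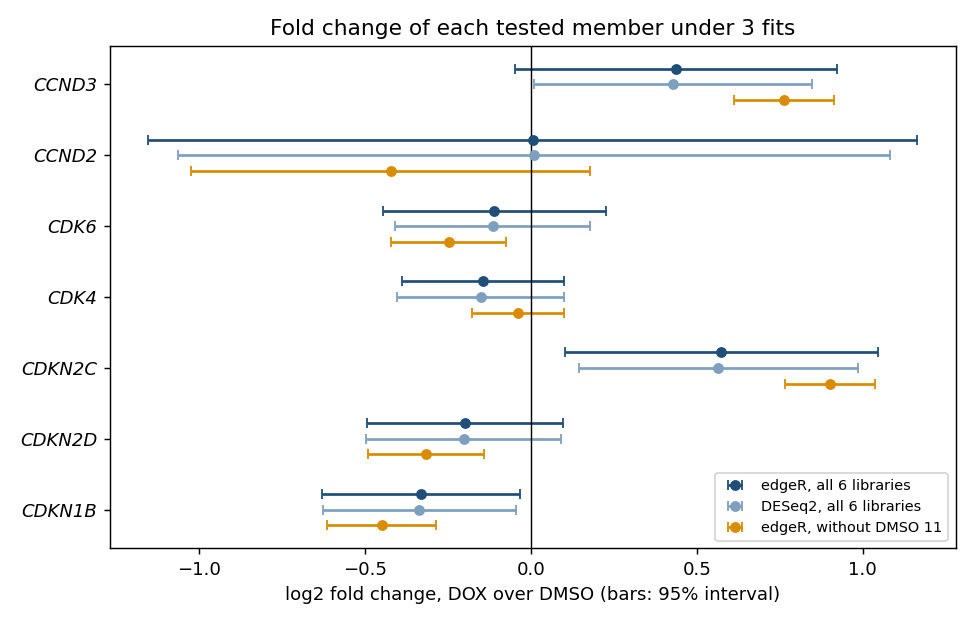
Log2 fold change, DOX over DMSO (horizontal axis), of the 7 tested G1 regulators with 95% intervals, from edgeR and DESeq2 on all 6 libraries and from edgeR without DMSO 11. CDKN2C and CCND3 lie to the right and move from 0.57 to 0.90 and from 0.44 to 0.76 without DMSO 11, while CDK4 stays near 0.

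Levels of different genes were compared per kb of the union of annotated exons. In DMSO, CDK6 was highest at 108 ± 20.7 CPM per kb (SD, n = 3), followed by CCND3 at 73.7 ± 25.98, CDK4 at 72.8 ± 9.11 and CDKN1B at 46.3 ± 8.63. CDKN2D and CDKN2C followed at 20.8 ± 3.12 and 20.7 ± 7.30 CPM per kb, and CCND2 at 0.1204 ± 0.0822. The libraries' values overlapped between CDK6 and CCND3, between CCND3 and CDK4, and between CDKN2D and CDKN2C, so these neighbours in the order cannot be ranked. In DOX, CDK6 and CCND3 stood side by side at 99.9 ± 6.05 and 99.8 ± 3.23 CPM per kb, above CDK4 at 65.9 ± 3.38, CDKN1B at 36.8 ± 1.65, CDKN2C at 30.8 ± 0.448 and CDKN2D at 18.2 ± 1.54. The length chosen matters for the order of these genes. Per kb of the principal transcript, CCND3 was highest at 205 ± 72.3 in DMSO and 278 ± 8.99 in DOX. By that length CDK6 stood at 114 ± 21.9 and 106 ± 6.39 and CDK4 at 111 ± 13.9 and 100.5 ± 5.16, so that the gap between these kinases was within their spread. The order of CDKN1B over both expressed INK4 genes was the same by either length.

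The balance of INK4 inhibitors to kinases followed the same split of the DMSO libraries. The summed INK4 level per kb over that of CDK4 plus CDK6 was 0.274 in DMSO 11, 0.224 in DMSO 23 and 0.197 in DMSO 35, and 0.280, 0.308 and 0.299 in DOX 12, 24 and 36. All DOX values lay above all DMSO values, but the gap was only that from 0.274 in DMSO 11 to 0.280 in DOX 12. The sum includes CDKN2C, whose groups did not overlap either, and leaves out CDKN1B, whose log2 fold change was below 0. Among all genes tested, 14.6% had groups that did not overlap with DOX higher. The level of CDKN1B over CCND3 was 0.372 in DMSO 11, 0.991 in DMSO 23 and 0.730 in DMSO 35, and 0.356, 0.374 and 0.378 in the DOX libraries. Here DMSO 11 lay within the DOX range. The ratio of CDK6 to CDK4 per kb of exon union was 1.04, 1.58 and 1.93 in DMSO 11, 23 and 35 and 1.70, 1.36 and 1.51 in DOX, with DOX inside the DMSO range. By principal transcript that ratio was below 1 in DMSO 11 (0.720) and DOX 24 (0.940).

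**Figure D3:**
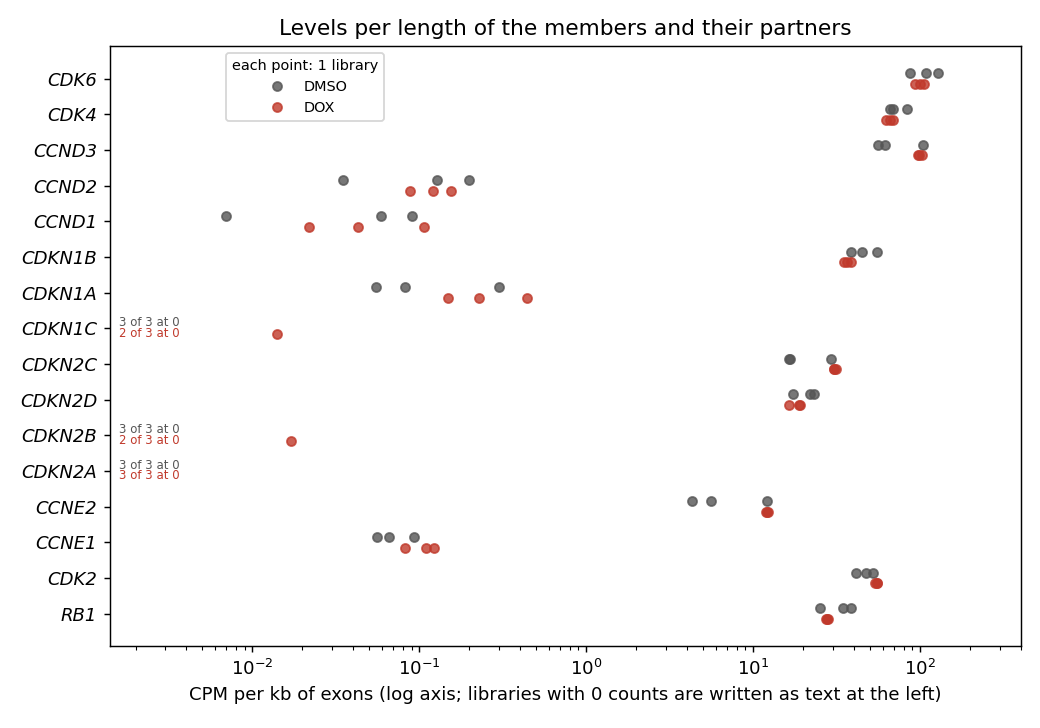
CPM per kb of exons (horizontal log axis) in each library for the 10 genes and 6 of their partners, DMSO in grey and DOX in red; libraries with 0 counts are written at the left. By this length CDK6, CDK4 and CCND3 lie highest, and CDKN2A, CDKN2B and CDKN1C have libraries at 0 counts in both groups.

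In the other genes of the pathway, 75 of 76 listed names were found and 72 were tested, with edgeR calling 0 and voom 0. At an unadjusted edgeR p under 0.05, 4 were higher and 12 lower, where 11.17% and 14.85% of all genes were. DESeq2 called 6 of the 71 it tested, all lower in DOX, where over all genes it called 6.89% as lower and 3.08% as higher. Of the 72 log2 fold changes, 36 were above 0 and 36 below. The median of these 72 was -5.73e-06, and that over all genes tested was -0.00307. Over the 7 tested G1 regulators the median was -0.11, the value of CDK6, with 3 log2 fold changes above 0 and 4 below. Without DMSO 11, edgeR called 25 of 73 higher and 18 lower, where it called 23.7% and 25.7% of all genes.

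Among the other cyclins, kinases and inhibitors, 7 of 10 were tested, and edgeR and DESeq2 called 0. At an unadjusted edgeR p under 0.05 there was 1, where 26.02% of all genes tested reached that level. CDK1, the mitotic kinase, averaged 231 ± 37.4 CPM under DMSO and 280 ± 12.5 CPM under DOX. CDK1 passed without DMSO 11 (edgeR adjusted p = 4.2e-05), where 23.7% of all genes passed as higher. Cyclin A2 (CCNA2) averaged 220 ± 5.41 CPM under DMSO and 219 ± 6.55 CPM under DOX. Cyclin E2 (CCNE2), which activates CDK2 after the D-type cyclins have acted, was at 53.5, 18.9 and 24.7 CPM in DMSO 11, 23 and 35 and at 52.4, 53.9 and 53.2 CPM in DOX. Its log2 fold change was 0.72 ± 0.33 (edgeR adjusted p = 0.203), and 1.28 without DMSO 11 (adjusted p = 2.31e-09). Cyclin E1 (CCNE1), named after its values were seen, was at 4 to 9 counts per library, so CCNE2 made up 98.4% to 99.5% of the E-type signal per kb.

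The pocket proteins and E2F factors, which D-type cyclin kinases act on, were all expressed. Of 13 tested, edgeR and DESeq2 called 0, with a median log2 change of 0.02. There was 1 at an unadjusted edgeR p under 0.05, a level that 26.02% of all genes tested reached. The most expressed were TFDP2, a dimer partner of E2F, at 655 ± 27.8 CPM under DMSO and 622 ± 25.8 CPM under DOX, and E2F2 at 297 ± 33.2 and 268 ± 4.69 CPM. RB1 itself stood at 163, 224 and 248 CPM in DMSO 11, 23 and 35 and at 182, 178 and 176 CPM in DOX, with DOX inside the DMSO range. RB1 passed without DMSO 11 (-0.40, edgeR adjusted p = 4.27e-05), where 25.7% of all genes passed as lower. Of the 6 genes that activate or fold the kinases, edgeR and DESeq2 called 0, with 2 at that unadjusted level, beside the same 26.02% of all genes. The chaperone HSP90AB1 stood at 2295, 1305 and 1448 CPM in DMSO 11, 23 and 35 and at 1784 to 1876 CPM in DOX. HSP90AB1 passed without DMSO 11 (0.41, edgeR adjusted p = 0.000261), where 23.7% of all genes passed as higher. The phosphatase CDC25A averaged 165 ± 19.1 and 173 ± 4.93 CPM.

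DESeq2's calls lay in the lists of protein turnover, of upstream factors and of E2F targets, each with 2 genes lower and 0 higher, of 16, 10 and 20 tested. EdgeR called 0 in each, with 4, 5 and 3 genes below an unadjusted p of 0.05, a level that 26.02% of all genes reached. FBXO4, an F-box protein described in cyclin D1 turnover, averaged 18.1 ± 4.20 CPM under DMSO and 11.5 ± 0.865 CPM under DOX (DESeq2 adjusted p = 0.0129). The ubiquitin ligase scaffold CUL4B stood at 110 ± 6.90 and 90.9 ± 0.622 CPM (DESeq2 adjusted p = 0.0459). FOXO3, a forkhead factor that activates CDKN1B in other settings, stood at 85.0 ± 17.9 and 60.7 ± 1.29 CPM (DESeq2 adjusted p = 0.0314), and EZH2, the Polycomb methyltransferase known for silencing CDKN2A, at 169 ± 11.03 and 139 ± 5.77 CPM (0.0481). The replication licensing factor CDT1 stood at 192 ± 14.1 and 149 ± 12.9 CPM and CDC45, part of the replicative helicase, at 98.3 ± 7.45 and 79.1 ± 3.31 CPM (DESeq2 adjusted p = 0.0242 and 0.036). These 6 genes are named because DESeq2 called them, so their lower DOX values follow from that choice. Their edgeR adjusted p ran from 0.0984 to 0.11. Each passed edgeR's test without DMSO 11 (adjusted p from 2.98e-07 to 0.000308), where 25.7% of all genes passed as lower. The 6 genes were called on these same libraries, so that pass is not separate support. Median log2 fold changes were 0.09 for turnover, 0.03 for E2F targets and -0.16 for upstream factors. All 10 tested upstream factors were below 0, as were 8029 of all 15949 genes tested. Their median deviation from the mean of the 6 libraries, in log2 CPM, was -0.03, 0.15 and 0.16 in DMSO 11, 23 and 35. It was -0.14, -0.07 and -0.04 in DOX 12, 24 and 36, so DMSO 11 stood with the DOX libraries.

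Proliferation markers of G2 and M phase stood beside these results. Of 9 tested, edgeR called 0, with 4 higher at an unadjusted p under 0.05, where 11.17% of all genes were. DESeq2 called 2, both higher in DOX, where it called 3.08% of all its genes as higher. Their median log2 change was 0.23, and all 9 were above 0, as were 7920 of all 15949 genes tested. Groups did not overlap, with DOX higher, in 6 of the 9 and in 14.6% of all genes tested. MKI67 stood at 709, 416 and 581 CPM in DMSO 11, 23 and 35 and at 893, 824 and 889 CPM in DOX (DESeq2 adjusted p = 0.0205), and TOP2A averaged 838 ± 125 CPM under DMSO and 1105 ± 20.7 CPM under DOX (DESeq2 adjusted p = 0.0396). Both passed edgeR's test without DMSO 11, with adjusted p-values of 6.63e-05 and 7.8e-06, where 23.7% of all genes passed as higher. The 9 genes summed to 2453 to 3111 CPM in the DMSO libraries and 3406 to 3474 CPM in the DOX libraries. That sum includes MKI67 and TOP2A, which are named because DESeq2 called them. In bulk RNA a change in the share of cells in a phase and a change in RNA per cell cannot be told apart. Of 6 stromal and epithelial markers, the collagen gene COL1A1 carried most of the sum, which was 2.87 to 7.14 CPM under DMSO and 9.49 to 10.6 CPM under DOX, while COL1A2 and DCN were at 0 or 1 count in each library. Only 2 of the 6 were tested, and edgeR called 0. DESeq2 called 1 as higher in DOX, beside 3.08% of all its genes. Groups did not overlap, with DOX higher, in 1 of the 2, beside 14.6% of all genes tested. The part of these markers in the results above was not tested.

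**Figure D4:**
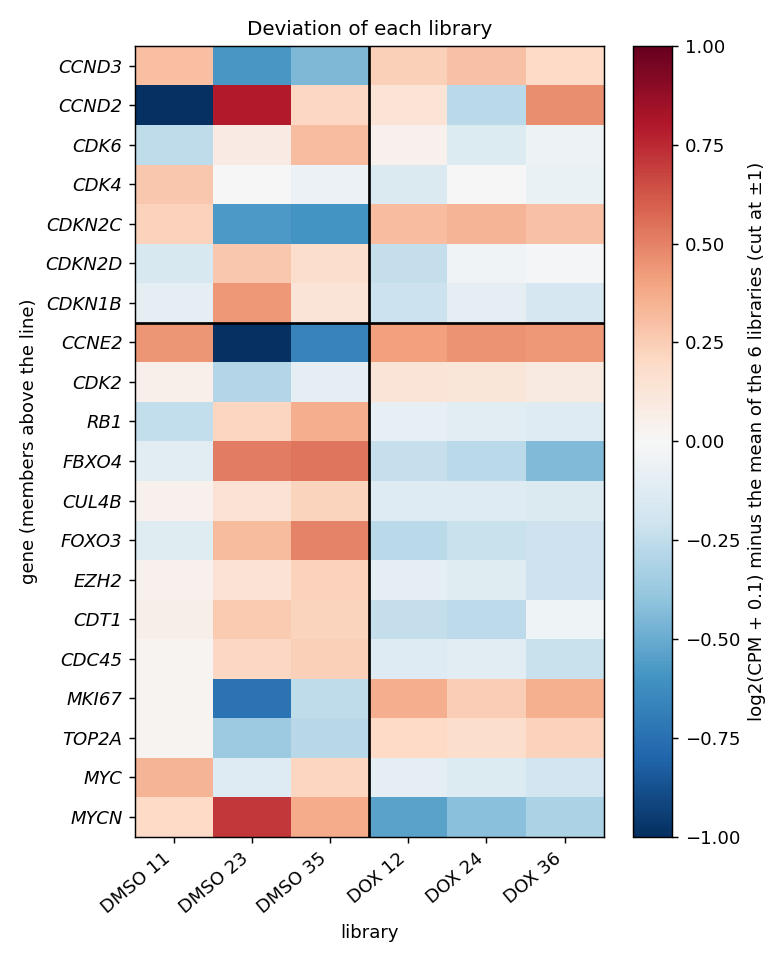
Log2(CPM + 0.1) of each library minus the mean of the 6 libraries (colour, limited to ±1) for the 7 tested G1 regulators, above the line, and 13 other genes named in the text. DMSO 11 resembles the DOX libraries for CCND3, CDKN2C and CCNE2, and differs from them for MYCN, where it held 76.8 CPM.

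Across the 6 libraries, 4 of the 7 tested genes fell into opposite pairs. The log2 CPM of CDKN2C and CCND3 had a Pearson r of 0.98, and CDKN1B and CDKN2D an r of 0.90, while CCND3 had an r of -0.92 with CDKN1B and -0.90 with CDKN2D. CDK4 stood outside these pairs, with an r of -0.13 to 0.21 with the 4 genes. These values are descriptions over 6 libraries that share 1 split, that of DMSO 23 and DMSO 35 from the other 4. Among the 78 other tested genes of the list and the pathway, those most like CCND3 were CCNE2 and AMBRA1 (r = 0.99 for each), and those most like CDKN2C were CCND3 and CCNE2 (0.98 for each). CDKN2D was most like CCNH and CDK7 (0.95 and 0.90), and CDKN1B most like CCNH and CDKN3 (0.94 and 0.93). CDK6 was most like RB1 and SP1 (0.92 and 0.86), CDK4 most like TYMS and FBXO31 (0.88 and 0.84), and CCND2 most like BMI1 and CDK6 (0.86 and 0.67). In 6 of the 7 tested genes DMSO 11 lay nearer to the DOX mean than to the mean of DMSO 23 and DMSO 35, the exception being CDK4, and the same held for 69.4% of all genes tested.

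In the authors' deposited table, the log2 fold change was 0.56 for CDKN2C (adjusted p = 0.0687), 0.43 for CCND3 (0.182), -0.34 for CDKN1B (0.123), -0.20 for CDKN2D (0.391), -0.15 for CDK4 (0.465), -0.12 for CDK6 (0.653) and 0.00823 for CCND2 (0.995). None of the 10 genes had an adjusted p under 0.05 there, in a table where 1362 of 14237 genes with an adjusted p (9.57%) did.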

How the data were processed

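Total RNA from 3 DMSO and 3 DOX samples of RPMI-8402 was read from both ends in libraries that keep strand, per the labels' protocols. The authors deposited whole-number read counts for Ensembl gene IDs, and the output of their comparison. Per the submitters' processing notes, the build was hg19 and the tools were DESeq2 1.12.4, STAR 2.5.2a and featureCounts, with no roles given; the annotation was not given in the sources used here. The authors' deposited table holds, per the file headers, a mean normalised signal, log2 fold changes with standard errors, a statistic (a score) and p-values. Count columns show the group but no label's replicate number. The 92 spike-in rows held 0 counts and were left out. No libraries were duplicates by chi-square.

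Genes were filtered with filterByExpr, scaled by TMM, and fitted in edgeR 4.0.16 under R 4.3.3 by the robust quasi-likelihood method (SE is the log2 fold change over the root of F). Alternatives were DESeq2 1.42.0, voom from limma 3.58.1, other scalings, filters, a threshold of 0.01 and leaving out each library. Tests were tried on simulated data. Exact permutation tests of log2 CPM (prior count 2) were two-sided. Exon lengths came from GENCODE 29 and promoters from RefSeq (GRCh38.p14), another build than the authors'. The genes and lists were chosen with earlier results of these data known. Named genes were the 10, MYC, MYCN, and per list up to 4 DESeq2 calls, or the 2 most expressed, and the 2 most alike by Pearson r. The listed name MIZF matched no symbol.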

Additional observations from a re-analysis of the deposited data

How the results depend on the processing

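No paired analysis was possible because the count columns carry none of the replicate numbers of the labels. CDKN1B alone among the 7 tested genes passed without a filter on low counts (log2 fold change -0.34, adjusted p = 0.0457), so that 1 was called there; DESeq2, voom, DESeq2 size factors, total-count scaling, a minimum of 1 CPM in 3 libraries (which removed CCND2) and a threshold of 0.01 called 0. CCND2 changed sign without a filter (-0.00647) and with total-count scaling (-0.00203). With 1 library left out, edgeR log2 fold changes ran from 0.43 to 0.90 for CDKN2C, 0.27 to 0.76 for CCND3, -0.45 to -0.18 for CDKN1B, -0.32 to -0.11 for CDKN2D, -0.25 to 0.03 for CDK6 (its 1 value above 0 was 0.0257 without DMSO 35), -0.21 to -0.04 for CDK4 and -0.42 to 0.56 for CCND2, whose value was below 0 without DMSO 11 (-0.42) and without DOX 36 (-0.21); the cause was not tested. In these fits with 1 library left out, calls among the 7 ran from 0 to 5, and above 0 only without DMSO 11. Over all genes, calls numbered 5 by edgeR, 1382 by DESeq2, 1761 with no filter, 1 at a threshold of 0.01, and 0 to 8109 with 1 library left out. Leaving out any library other than DMSO 11 gave 0 calls by edgeR, while 2273 to 2629 unadjusted p-values were under 0.05. Low counts limit CCND2, CDKN1C, CDKN2A and CDKN2B, and CCND2 is also limited by the spread of its DMSO libraries. For CDKN2C and CCND3 the SE was 0.21 for each with all libraries and 0.07 for each without DMSO 11.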
